A study of Mus musculus with 20 samples.

Results

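Axin2, Dkk1, Sp5, Nkd1, Notum, Lef1, Rnf43, Znrf3, Lrp5 and Phlda1 are feedback regulators and targets of Wnt signalling, and their RNA levels were followed through 20 mouse RNA-seq libraries. The 10 genes were taken by symbol from 55421 features, and each symbol matched 1 row. In all, 10 libraries came from induced presomitic mesoderm (iPSM), colonies made from embryonic stem cells, and 10 from embryonic stem cells (ESC). In each cell type, 2 tetO-Clock/Bmal1 clones and 2 tetO-Clock/Bmal1DN clones, which carry a dominant-negative Bmal1, were measured with and without doxycycline (dox), the drug that switches the transgenes on. A control line without either transgene gave 1 library with and 1 without dox, so its values have no replicate. The iPSM clones were 12 and 20 (Clock/Bmal1) and 7 and 19 (ClockBmal1DN), treated with 1000 ng/mL dox for 2 hours. The ESC clones were 1 and 7 (Clock/Bmal1) and 5 and 6 (ClockBmal1DN), treated with 500 ng/mL for 6 hours. All iPSM libraries derive from E14TG2a cells with a luciferase reporter under the Hes7 promoter, and all ESC libraries from KY1.1 cells, so parental line, dose and duration change together with cell type. The labels place the inhibitor CHIRON99021, which blocks GSK3 and thereby activates Wnt signalling, in the stem cell medium of the E14TG2a lines, and the media of the KY1.1 cells and of the iPSM differentiation are not given in the sources used here.

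In canonical Wnt signalling, a Wnt ligand binds a Frizzled receptor with LRP5 or LRP6, the destruction complex built on AXIN, APC and GSK3 stops degrading beta-catenin, and beta-catenin switches on target genes together with TCF/LEF factors. Many of the targets act back on the pathway at a different level. In the presomitic mesoderm, a posterior Wnt signal keeps cells immature, and in mouse embryos Axin2, Dkk1 and Nkd1 are transcribed in waves with the segmentation clock. CLOCK and BMAL1 are the activators of the circadian clock and bind E-box sequences.

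By role, LRP5 is the coreceptor (chr19:3584828-3686556, minus strand, mm10). RNF43 (chr11:87663087-87735538, plus) and ZNRF3 (chr11:5276324-5444847, minus) are ubiquitin ligases that remove Frizzled from the cell surface. DKK1 (chr19:30545863-30549665, minus) is a secreted inhibitor that binds LRP5 and LRP6, and NOTUM (chr11:120653788-120660829, minus) is a secreted enzyme that removes the lipid from Wnt ligands. NKD1 (chr8:88521354-88593618, plus) binds Dishevelled, and AXIN2 (chr11:108920349-108950783, plus) is a scaffold of the destruction complex. LEF1 (chr3:131110471-131224356, plus) is a nuclear partner of beta-catenin, and SP5 (chr2:70474923-70477729, plus) is a zinc-finger transcription factor encoded by a direct Wnt target. PHLDA1 (chr10:111506286-111508645, plus) is a pleckstrin homology-like domain protein. The values below are counts over whole gene bodies, introns included. The bodies of Phlda1, Sp5, Dkk1, Notum and Axin2 span 2.4, 2.8, 3.8, 7.0 and 30.4 kb, while those of Nkd1, Rnf43, Lrp5, Lef1 and Znrf3 span 72.3, 72.5, 101.7, 113.9 and 168.5 kb. Length matters here because libraries differed in how much they gave to long genes.

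Library totals ran between 38.2 and 57.3 M (mega) counts. Levels are counts scaled to the library total (CPM, per M counts) on TMM factors over all libraries. Presomitic markers summed to 789 to 1490 CPM in iPSM and to 34.6 to 153 CPM in ESC. Of the 10 markers, 9 were at 1 CPM or more in each iPSM library and 5 to 7 in each ESC library. Among them Lfng overlapped between the cell types (7.34 to 89.4 CPM in iPSM and 10.8 to 104 CPM in ESC). Pluripotency markers summed to 226 to 459 CPM in iPSM and 1950 to 2820 CPM in ESC, and all 9 were at 1 CPM or more in every library. Mesp2, a presomitic marker of the forming somite boundary, stayed under 1 CPM in iPSM. The untreated iPSM control library stood apart, with reads over 69.4% of features. The untreated ESC control library did so too, with reads over 43.8% of features, against 49.3% to 53.0% in the other ESC libraries. Clock and Arntl (Bmal1), whose counts include transgene reads, were higher with dox in each of the 8 clones, least for Arntl in ClockBmal1DN iPSM clone 19 (143 CPM with dox and 61.9 CPM untreated). Per1, Per2, Nr1d1 and Dbp, targets of the circadian activators, rose in the Clock/Bmal1 clones of both cell types, and none of these 4 passed in the ClockBmal1DN clones. Their log2 fold changes in ClockBmal1DN ESC were 0.24, 0.48, -1.68 and -2.25 in that order, with Nr1d1 and Dbp lower in both clones. In ClockBmal1DN iPSM they were 0, -0.17, 0.07 and -0.37.

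Sp5 and Dkk1 were lower after 2 hours of dox in the Clock/Bmal1 iPSM clones. They were 2 of the 7 features that fell, or 0.0281% of 24951 tested; 1.03% of features passed in either direction (edgeR's quasi-likelihood test, Benjamini-Hochberg adjusted p under 0.05). The other 8 Wnt genes did not pass. The median log2 fold change was -0.075 over the 10 genes and -0.02 over all features. No separate culture is described beyond the clones, so the 2 clones per group are the only replicates. The p-values rest on a spread estimated together from the groups with 2 clones, and drawn toward that of other features. Treated and untreated libraries of the same clone entered this fit as independent.

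Sp5 had 34.2 and 31.4 CPM with dox in Clock/Bmal1 clones 12 and 20, against 65.2 and 72.5 CPM in the same clones untreated. Both treated libraries lay below both untreated ones. The log2 fold change was -1.05 ± 0.136 (SE, n = 2 clones per group, edgeR adjusted p = 0.00301). In the ClockBmal1DN clones 7 and 19, Sp5 had 48.7 and 55.2 CPM with dox and 64.5 and 65.9 CPM untreated, a log2 fold change of -0.32 ± 0.134 that did not pass (edgeR adjusted p = 1). The control line had 83.2 CPM with dox and 67.3 CPM untreated. The Sp5 call was lost without treated clone 20 (-1.0, edgeR adjusted p = 0.0663) and when only the Clock/Bmal1 groups were fitted (-1.05, edgeR adjusted p = 0.0605), and its direction held.

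Dkk1 had 5.84 and 7.17 CPM with dox in clones 12 and 20, and 12.5 and 20.7 CPM untreated. The groups did not overlap, and the treated levels were the lowest of all 10 iPSM libraries. The log2 fold change was -1.33 ± 0.257 (SE, n = 2 clones per group, edgeR adjusted p = 0.0332). The ClockBmal1DN clones had 22.2 and 29.6 CPM with dox against 26.4 and 33.8 CPM untreated (-0.21 ± 0.247), and the control line 26.6 CPM with dox against 17.4 CPM untreated. Untreated Clock/Bmal1 clone 12 was below each of the ClockBmal1DN and control libraries, and untreated clone 20 lay between the control values. The Dkk1 call lay close to the threshold. It was lost with a filter of 1 CPM in 2 libraries (edgeR adjusted p = 0.0614), with only the Clock/Bmal1 groups fitted (0.198) and without the control line (0.0514), at a log2 fold change of -1.32 or -1.33. Leaving out treated clone 12 gave -1.18 (edgeR adjusted p = 0.211), leaving out untreated clone 20 gave -0.92 (0.0862) and leaving out treated clone 20 gave -1.50 (0.189), so the call was lost in these fits too.

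**Figure D1:**
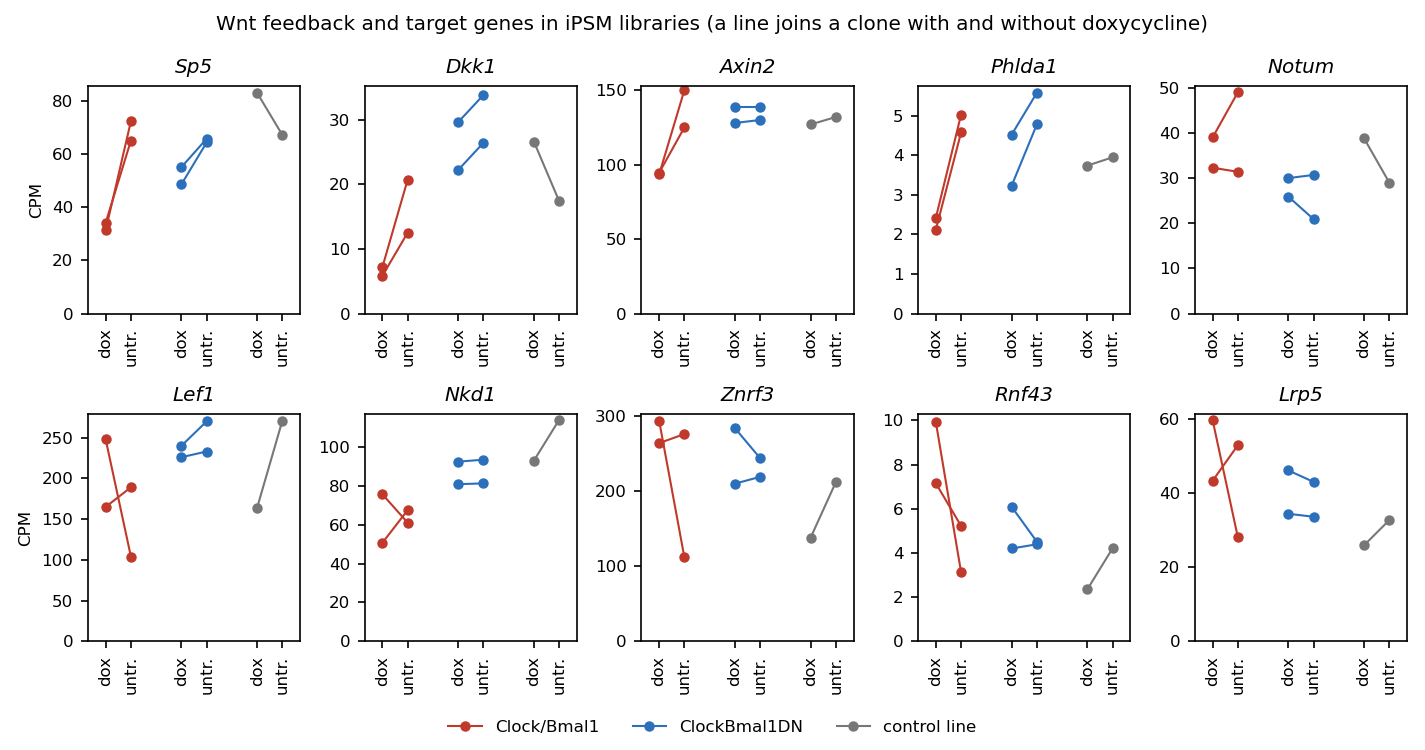
CPM of the 10 Wnt genes in the 10 iPSM libraries, each axis starting at 0; a line joins the dox library and the untreated library (untr.) of the same clone or control line. Sp5, Dkk1, Axin2 and Phlda1 are lower with dox in both Clock/Bmal1 clones, while Lef1, Znrf3 and Lrp5 move apart in clones 12 and 20.

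The upstream sequences of Sp5 and Dkk1 are shown because these are the genes that fell. RefSeq promoter windows (GRCm38.p6, 250 bases before to 50 after an annotated start) were held for 6 of the 10 genes, in 10 windows. They were searched on both strands for the TCF/LEF word CTTTGNN, in which each N is A or T, for the E-box CACGTG and for CACGTT. In the first sequence the capitals mark the TCF/LEF words, one of them read on the opposite strand, over all 250 bases before the Sp5 start (chr2:70474673-70474922, plus strand). The second gives 30 bases of Dkk1 with its 2 words in capitals (chr19:30549586-30549615, minus strand), counted from a RefSeq start that lies 169 bases inside the gene body of the deposited table.
Sp5: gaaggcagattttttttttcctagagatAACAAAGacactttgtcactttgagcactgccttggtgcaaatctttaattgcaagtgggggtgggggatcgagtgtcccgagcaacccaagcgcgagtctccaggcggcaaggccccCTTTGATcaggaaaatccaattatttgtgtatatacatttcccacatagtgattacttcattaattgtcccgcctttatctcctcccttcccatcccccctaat
Dkk1: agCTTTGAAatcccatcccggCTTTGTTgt

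The Sp5 words begin 222 and 104 bases before its start, and those of Dkk1 117 and 98 bases before the RefSeq start. At least one TCF/LEF word is present in 16.9% of all 32851 promoter windows. Neither the Sp5 nor the Dkk1 window holds CACGTG or CACGTT, which are in 7.15% and 4.68% of all windows. Among the other windows, 1 of the 4 for Lef1 holds both a TCF/LEF word and CACGTG, and those of Axin2, Nkd1 and Rnf43 hold none of the words. A match describes letters in the window, not a site that is used, and no match says only that these letters are not there.

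Axin2 and Phlda1 were also lower in both Clock/Bmal1 iPSM clones, without passing the threshold. Axin2 had 93.4 and 94.5 CPM with dox in clones 12 and 20, and 150 and 125 CPM untreated, a log2 fold change of -0.53 ± 0.135 (edgeR adjusted p = 0.149). In the ClockBmal1DN clones Axin2 had 139 and 128 CPM with dox and 139 and 130 CPM untreated. The treated Clock/Bmal1 libraries were thus the 2 lowest of the 10 for this gene, and Axin2 passed in 1 of the fits that leave out a library (without untreated clone 20, -0.66, edgeR adjusted p = 0.0209). Phlda1 had 2.42 and 2.12 CPM with dox and 5.03 and 4.58 CPM untreated in the Clock/Bmal1 clones, a log2 fold change of -1.06 ± 0.251 (edgeR adjusted p = 0.102). Its groups did not overlap, and it passed with clone as a block in edgeR (-1.06, adjusted p = 0.0245) and with DESeq2 (-1.06, adjusted p = 0.0336). In ClockBmal1DN clones 7 and 19, Phlda1 had 4.52 and 3.23 CPM with dox and 5.58 and 4.78 CPM untreated.

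The long-bodied Wnt genes behaved differently in the 2 Clock/Bmal1 iPSM clones. Lef1 had 165 CPM with dox and 189 CPM untreated in clone 12, but 248 CPM with dox and 104 CPM untreated in clone 20. Znrf3 had 264 CPM with dox and 276 CPM untreated in clone 12, and 294 CPM with dox and 112 CPM untreated in clone 20. For both genes it was the untreated library of clone 20 that was low, and the same held for Lrp5 (43.3 CPM with dox and 52.9 CPM untreated in clone 12, 59.7 CPM with dox and 28.1 CPM untreated in clone 20). Rnf43 was higher with dox in both clones (7.15 and 9.92 CPM with dox, 5.22 and 3.12 CPM untreated), a log2 fold change of 1.05 ± 0.299 (edgeR adjusted p = 0.24). None of the 4 passed, with log2 fold changes of 0.52 for Lef1, 0.54 for Znrf3 and 0.37 for Lrp5. Without untreated clone 12, Lef1 (1.02), Rnf43 (1.48) and Znrf3 (1.33) passed in edgeR with adjusted p of 0.0259, 0.0298 and 0.00227, a fit in which untreated clone 20 alone stands for its group. Nkd1 had 50.7 and 75.7 CPM with dox and 67.5 and 61.1 CPM untreated, and Notum 32.3 and 39.0 CPM with dox and 31.4 and 49.0 CPM untreated. Treated and untreated libraries overlapped for both inhibitors.

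Read coverage of long genes moved in the same libraries. The values here are over the 4085 genes over 50 kb and the 2723 genes under 5 kb whose mean log2 CPM in iPSM was above 0. In untreated clone 20, the median log2 deviation from the gene's mean was lower by 0.54 for long than for short genes (long minus short -0.54), the lowest such value of the 10 iPSM libraries, and it was -0.02 in the treated library of that clone. In clone 12 it was -0.11 with dox and 0.12 untreated, and in the control line -0.35 with dox and 0.28 untreated. Over the same genes, dox over untreated had a median log2 ratio of 0.27 for those over 50 kb and -0.26 for those under 5 kb in clone 20, and of -0.17 and 0.10 in clone 12. In the control line these medians were -0.33 and 0.37, beside log2 ratios of 0.19 for Sp5 and 0.49 for Dkk1, both short genes. The part of the length shift in these control values was not tested. With a length trend removed in each library, a step added after the data were seen, Sp5 was -1.03 (edgeR adjusted p = 0.000653) and Dkk1 -1.29 (edgeR adjusted p = 0.00853), the same 2 genes passed, and Lef1, Znrf3 and Rnf43 still did not.

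**Figure D2:**
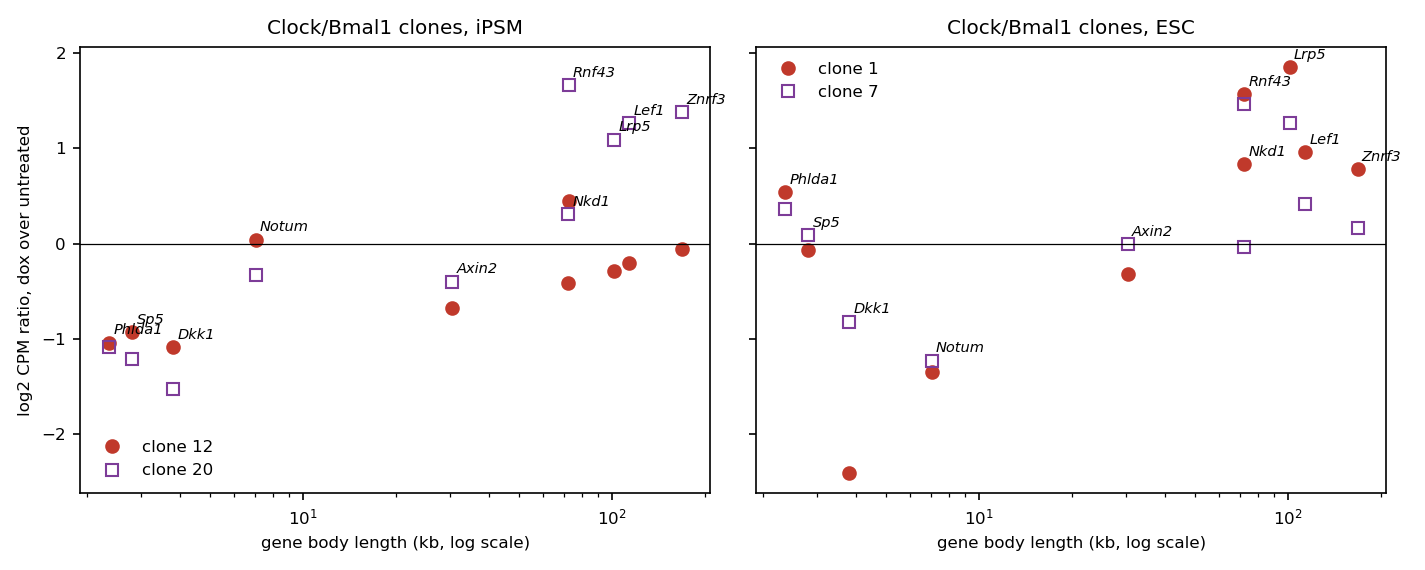
Log2 CPM ratio of dox over untreated (0.05 CPM added to each) in each Clock/Bmal1 clone, against gene body length on a log axis, with iPSM at left and ESC at right. In iPSM the short genes Sp5, Dkk1 and Phlda1 lie at or below -0.93 in both clones, while Lef1, Znrf3 and Lrp5 are above 1 in clone 20 and below 0 in clone 12; the lowest ESC point is Dkk1 in clone 1, which had 0 counts with dox.

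Whether the response needs an active BMAL1 was asked by the ClockBmal1DN clones, but induction was not matched between the lines in iPSM. With dox, Arntl had 828 and 143 CPM in ClockBmal1DN clones 7 and 19, and 2970 and 4290 CPM in Clock/Bmal1 clones 12 and 20. Clock had 954 and 985 CPM in the former and 1610 and 2250 CPM in the latter. The part of this difference in the values below was not tested. None of the 10 Wnt genes passed in ClockBmal1DN iPSM (0 of 10 in edgeR and in DESeq2, 1 at an unadjusted p under 0.05), where 0.00401% of features passed. The difference between the Clock/Bmal1 and the ClockBmal1DN effect in iPSM was also tested, and it passed for 0.281% of features but for none of the 10 (0 in edgeR and in DESeq2, 3 at an unadjusted p under 0.05). The differences were -0.73 ± 0.19 for Sp5 (edgeR adjusted p = 0.348), -1.12 ± 0.354 for Dkk1 (0.683), -0.52 ± 0.19 for Axin2 (1) and -0.65 ± 0.35 for Phlda1 (1), on the log2 scale. The fall of Sp5 and Dkk1 is therefore not shown to differ between the lines. Dkk1 passed this test in edgeR without untreated Clock/Bmal1 clone 12 (-1.43, adjusted p = 0.0442).

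In ESC no Wnt gene passed 6 hours after Clock/Bmal1 induction (0 of 10 in edgeR, 1 in DESeq2, 3 at an unadjusted p under 0.05), against 0.421% of 22540 features. Apart from Dkk1, which had few reads, the largest log2 fold changes were those of Lrp5, Rnf43 and Notum. The median log2 fold change of the 10 was 0.4, and -0.007 over all features.

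Lrp5 had 90 and 45 CPM with dox in Clock/Bmal1 clones 1 and 7, and 24.9 and 18.8 CPM untreated. The groups did not overlap, and treated clone 1 was far above treated clone 7. Its log2 fold change was 1.60 ± 0.353 (SE, n = 2 clones per group, edgeR adjusted p = 0.145). It passed with clone as a block in edgeR (1.53, adjusted p = 0.0397), with DESeq2 (1.63, adjusted p = 0.00059) and without treated clone 7 in edgeR (2.06, adjusted p = 0.0448). Without treated clone 1 it was 1.02 (edgeR adjusted p = 0.824). ClockBmal1DN clones 5 and 6 had 20.4 and 34.1 CPM with dox and 20.6 and 19.4 CPM untreated, so that clone 6 was higher with dox and clone 5 was not. The control line had 19.5 CPM with dox and 25.9 CPM untreated. Induction differed between ClockBmal1DN clones 5 and 6. With dox, Clock had 349 and 1650 CPM and Arntl 1740 and 4470 CPM in these clones. The part of induction in the differences between clones 5 and 6 was not tested.

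Rnf43 was low in ESC and higher with dox in both Clock/Bmal1 clones, at 2.88 and 2.39 CPM with dox and 0.937 and 0.837 CPM untreated (log2 fold change 1.54 ± 0.363, edgeR adjusted p = 0.177). The ClockBmal1DN clones had 0.78 and 1.02 CPM with dox and 0.65 and 0.482 CPM untreated, and the control line 0.232 CPM with dox and 1.44 CPM untreated. The control line was thus lower with dox, unlike the clones, but its untreated library was the ESC library that stood apart in features with reads. Notum was lower with dox in both Clock/Bmal1 clones, at 8.75 and 13.6 CPM with dox and 22.4 and 31.8 CPM untreated (-1.31 ± 0.523, edgeR adjusted p = 0.612). In the ClockBmal1DN clones it had 33.9 and 9.19 CPM with dox and 31.6 and 23.0 CPM untreated, so clone 6 was lower with dox as well. Fibroblast feeder markers, 10 genes, also differed in clone 6: they summed to 403 CPM with dox and 1040 CPM untreated, with 9 and 10 of the 10 at 1 CPM or more and none at 0, against 276 to 747 CPM in the other 8 ESC libraries. Fn1, 1 of these markers, alone had a median of 363 CPM over the ESC libraries, where the median sum was 444 CPM. In iPSM its median was 371 CPM, so it is not particular to feeders here. The part of the feeder markers in the clone 6 values was not tested.

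**Figure D3:**
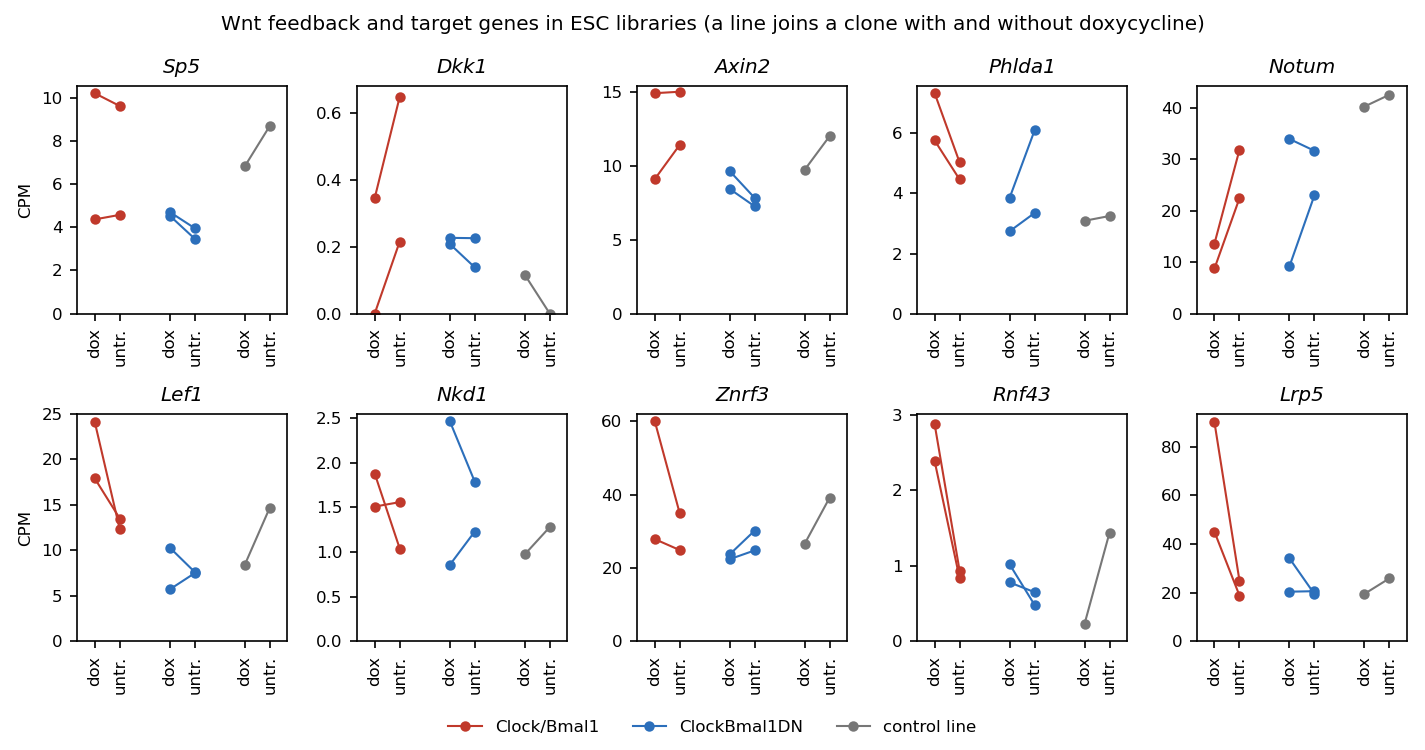
CPM of the 10 Wnt genes in the 10 ESC libraries, each axis starting at 0; a line joins the dox library and the untreated library (untr.) of the same clone or control line. Lrp5 and Rnf43 are higher and Notum lower with dox in both Clock/Bmal1 clones; ClockBmal1DN clone 6 moves the same way for all 3.

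Sp5 and Axin2, which were lower in the Clock/Bmal1 iPSM, had other values in ESC. Sp5 had 4.36 and 10.2 CPM with dox and 4.57 and 9.61 CPM untreated, a log2 fold change of 0.01 ± 0.45, and Axin2 9.08 and 14.9 CPM with dox and 11.4 and 15.0 CPM untreated. Here the clones differed more from each other than from their own treated library. Dkk1 was near its detection limit, with 0 and 13 counts with dox against 11 and 34 counts untreated. Lef1 had 24.1 and 17.9 CPM with dox and 12.3 and 13.5 CPM untreated, Znrf3 60.2 and 27.9 CPM with dox and 35.0 and 24.9 CPM untreated. Nkd1 (0.36) and Phlda1 (0.44) had log2 fold changes under 0.5 that did not pass.

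Long genes stood high in Clock/Bmal1 ESC clone 1 with dox. There the median log2 deviation of 3816 genes over 50 kb minus that of 2429 genes under 5 kb, again of genes with a mean log2 CPM above 0, was 0.43, the highest of the 10 ESC libraries, and in ClockBmal1DN clone 6 with dox, at 0.26. It was 0.10 in Clock/Bmal1 clone 7 with dox, -0.07 and -0.06 in the untreated Clock/Bmal1 clones and -0.33 in the control line with dox. With the length trend removed, Lrp5 was 1.43 (edgeR adjusted p = 0.122) and Rnf43 1.42 (edgeR adjusted p = 0.198).

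In the ClockBmal1DN ESC clones none of the 10 passed (0 of 10 in edgeR and in DESeq2, none at an unadjusted p under 0.05), and 0.00444% of features did. The log2 fold changes were 0.41 for Lrp5, 0.63 for Rnf43 and -0.37 for Notum. The difference between the Clock/Bmal1 and the ClockBmal1DN effect passed for 0.0577% of features and for none of the 10 (0 in edgeR and in DESeq2, 1 at an unadjusted p under 0.05). It was 1.19 ± 0.49 for Lrp5, 0.91 ± 0.525 for Rnf43 and -0.94 ± 0.728 for Notum.

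The Clock/Bmal1 effect in iPSM minus that in ESC was tested over all libraries, and 0% of 26814 features passed by edgeR (1082 had an unadjusted p under 0.05, and DESeq2 called 15). No Wnt gene passed (0 of 10 in edgeR and in DESeq2, 3 at an unadjusted p under 0.05). Phlda1 had the smallest p, with a difference of -1.54 ± 0.448, and Sp5 (-1.11 ± 0.464) and Lrp5 (-1.28 ± 0.492) followed, each with an edgeR adjusted p of 1. Dose, duration and parental line differ along with cell type in this comparison and cannot be told apart from it.

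Between the cell types themselves most of the Wnt genes differed more than with dox, but Notum, Phlda1 and Lrp5 did not. Their log2 fold changes between cell types were 0.24, 0.07 and 0.91. With Clock/Bmal1 they were -1.31 for Notum in ESC, -1.06 for Phlda1 in iPSM and 1.60 for Lrp5 in ESC. In untreated clones, 8 of the 10 were higher in iPSM than in ESC and none was lower, where 31.2% of features were higher and 60% passed in either direction. The median log2 fold change over the 10 genes was 3.30, and 0.05 over all features. Notum and Phlda1 did not pass. Of the 8, 5 have bodies over 50 kb, and in this comparison the tested features over 50 kb had a median log2 fold change of 0.61 and those under 5 kb one of -0.04. With the length trend removed, 7 of the 10 passed, and the 5 long genes had log2 fold changes of 5.36 (Nkd1), 3.65 (Lef1), 2.21 (Rnf43), 2.01 (Znrf3) and 0.35 (Lrp5). In bulk RNA, fewer cells of a type and less RNA per cell cannot be told apart.

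Dkk1, the secreted inhibitor, differed most: it had 23.4 ± 8.99 CPM in untreated iPSM and 0.306 ± 0.231 CPM in untreated ESC (SD, n = 4 clones each, log2 fold change 6.31). Nkd1, the Dishevelled-binding inhibitor, had 75.9 ± 14.5 CPM in iPSM and 1.40 ± 0.337 CPM in ESC (5.74). Lef1, the beta-catenin partner, had 199 ± 71.7 CPM in iPSM and 10.2 ± 3.13 CPM in ESC (4.28). For all 3, the lowest iPSM clone was above the highest ESC clone. Axin2 had 136 ± 10.9 CPM in iPSM and 10.4 ± 3.59 CPM in ESC (3.77), and Sp5 67.0 ± 3.72 CPM in iPSM and 5.40 ± 2.84 CPM in ESC (3.71). The untreated iPSM clones ran from 125 to 150 CPM for Axin2 and from 64.5 to 72.5 CPM for Sp5, well clear of the ESC clones.

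The ubiquitin ligases were higher too, Znrf3 with 213 ± 70.8 CPM in iPSM and 28.7 ± 4.90 CPM in ESC (2.88) and Rnf43 with 4.31 ± 0.877 CPM in iPSM and 0.727 ± 0.202 CPM in ESC (2.60). The coreceptor gene Lrp5 differed least of those that passed, with 39.4 ± 10.9 CPM in iPSM and 20.9 ± 2.75 CPM in ESC (0.91), and its call was lost with the length trend removed (0.35, edgeR adjusted p = 0.137). Notum had 33.0 ± 11.7 CPM in iPSM and 27.2 ± 5.20 CPM in ESC (0.24), and Phlda1 5.00 ± 0.433 CPM in iPSM and 4.74 ± 1.15 CPM in ESC (0.07). The ranges of the 2 cell types overlapped for Notum and for Phlda1.

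**Figure D4:**
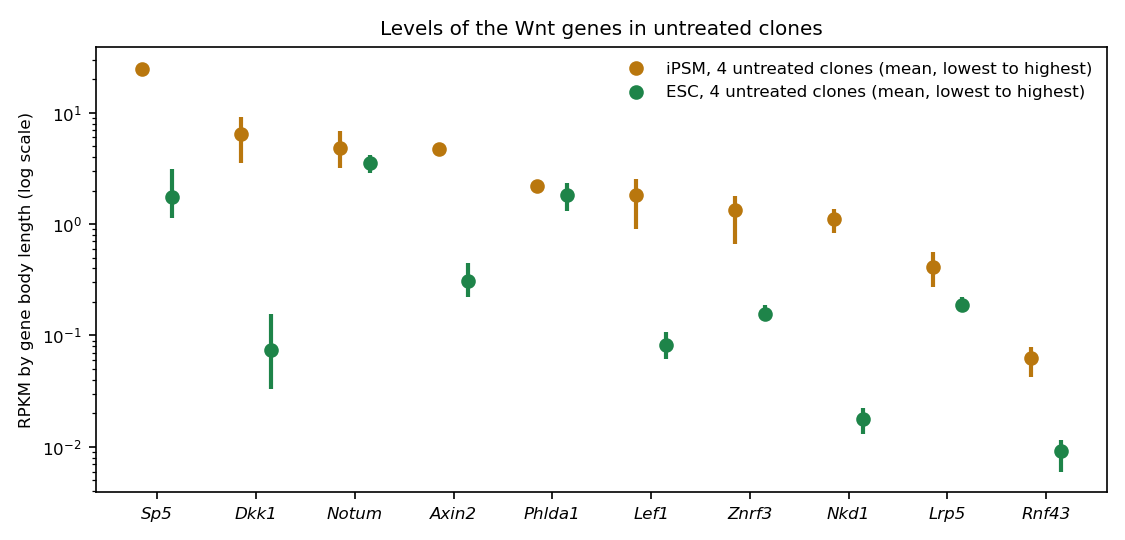
RPKM, the authors' reads per kilobase of gene body and M reads, on a log axis for the 10 Wnt genes in untreated iPSM and ESC clones (n = 4 each; point, mean; line, lowest to highest clone). Sp5 is the highest in iPSM and Rnf43 the lowest in both; Notum and Phlda1 lie close together in the 2 cell types.

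Levels of different genes were compared only per length, by the authors' RPKM, which counts introns in the length and so is low for long genes. In untreated iPSM, Sp5 was highest at 24.9 ± 0.568 RPKM (SD, n = 4), above the range of all others. Dkk1 (6.40 ± 2.46), Notum (4.86 ± 1.54) and Axin2 (4.68 ± 0.546) followed and overlapped, then Phlda1 (2.21 ± 0.257), Lef1 (1.84 ± 0.692), Znrf3 (1.33 ± 0.479) and Nkd1 (1.10 ± 0.23), of which neighbours overlapped. Lrp5 (0.408 ± 0.127) and Rnf43 (0.0625 ± 0.0148) were lowest. In ESC the order was led by Notum (3.53 ± 0.701), Phlda1 (1.83 ± 0.434) and Sp5 (1.75 ± 0.918), and Rnf43 was again lowest at 0.00908 ± 0.0025.

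The profile of Axin2 over the 20 libraries was compared with that of all 26814 features, by the root mean square distance of log2 CPM centred on each gene's mean. Leaving out predicted genes and numbered clones, the nearest 5 were Ints6l (0.268), Grsf1 (0.268), Prickle1 (0.289), Lhpp (0.29) and Grip1 (0.299). Of the other Wnt genes, Sp5 ranked 9 (0.328), Lef1 212 (0.546) and Znrf3 414 (0.648) with no feature left out, and Dkk1 (1.73) and Phlda1 (1.92) were far. The distance is dominated by the step between cell types.

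Other genes of the pathway were read from 8 role lists with 102 genes. With Clock/Bmal1 in iPSM, 2 of 100 tested passed by edgeR, both higher, where 1.03% of all features passed and 1% were higher. DESeq2 called 3, all higher: these 2, Fzd4 and Rspo4, and the nuclear factor gene Tle1. Fzd4, a Frizzled receptor, had 9.95 and 13.0 CPM with dox in clones 12 and 20 and 2.84 and 2.25 CPM untreated (2.19 ± 0.246, edgeR adjusted p = 0.00119). In the ClockBmal1DN clones Fzd4 had 3.17 and 3.19 CPM with dox and 3.03 and 2.69 CPM untreated, and the difference between the lines passed (2.04, edgeR adjusted p = 0.0386). Rspo4, an R-spondin that enhances Wnt signalling, had 2.11 and 3.16 CPM with dox and 0.549 and 0.134 CPM untreated (2.93 ± 0.549, edgeR adjusted p = 0.0283). Untreated clone 20 had 6 counts of Rspo4. The Rspo4 log2 fold change was 2.28 without that library (edgeR adjusted p = 0.0452) and 4.30 without untreated clone 12 (0.00314). The Rspo4 call was lost without treated clone 20 (2.60, edgeR adjusted p = 0.286), with a filter of 1 CPM in 2 libraries (0.0578) and with only the Clock/Bmal1 groups fitted (0.159). The Fzd4 difference between the lines was lost without treated clone 20 (1.82, edgeR adjusted p = 0.231), without the control line (0.0524), with the 1 CPM filter (0.0631) and without any 1 of the 4 ClockBmal1DN libraries (edgeR adjusted p between 0.167 and 0.319).

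In ESC with Clock/Bmal1, 0 of 97 tested genes of these lists passed by edgeR, where 0.421% of features did. At an unadjusted p under 0.05 there were 13 of the 97 and 1685 of all 22540 features. DESeq2 called 1, again Fzd4. Fzd4 had 5.02 and 4.68 CPM with dox in clones 1 and 7 and 0.801 and 1.24 CPM untreated. ClockBmal1DN clone 6 had 3.31 CPM with dox and 0.596 CPM untreated, and clone 5 had 0.503 CPM with dox and 0.675 CPM untreated. With ClockBmal1DN none passed in either cell type by edgeR or DESeq2 (13 in ESC and 2 in iPSM had an unadjusted p under 0.05, against 894 and 174 of all features). Most of the 13 in ESC were lower with dox, though not all of them. The fibroblast feeder markers were lower with dox in clone 6 (403 CPM with dox and 1040 CPM untreated). Their part in these values was not tested.

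Between untreated iPSM and ESC, 47 of the 100 tested genes of the lists were higher, 27 were lower and 26 did not pass, and their median log2 fold change was 0.255. Of all features, 31.2% were higher and 28.8% lower, and the median was 0.05. The counts of the lists below are descriptions to be read beside these shares. Of 18 Wnt ligand genes, 7 were higher and 7 lower. Wnt3a, which maintains the posterior mesoderm of the mouse embryo, had 75.2 ± 11.8 CPM in iPSM and 1.92 ± 0.45 CPM in ESC (5.30), and Wnt8a 151 ± 57.6 CPM in iPSM and 3.97 ± 1.68 CPM in ESC (5.33). Wnt7b and Wnt4 were lower in iPSM, at 2.26 ± 0.453 CPM in iPSM and 23.4 ± 12.8 CPM in ESC for Wnt7b, and 0.893 ± 0.186 CPM in iPSM and 6.36 ± 1.77 CPM in ESC for Wnt4 (SD, n = 4 clones each, as for the genes below).

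Of 7 genes for R-spondins and their receptors, 2 were higher and 1 lower. Rspo3 had 226 ± 84.5 CPM in iPSM and 2.88 ± 1.59 CPM in ESC (6.24), and Lgr5, an R-spondin receptor, 2.63 ± 0.688 CPM in iPSM and 0.591 ± 0.124 CPM in ESC (2.15). Of the 14 receptor genes, 8 were higher and 4 lower, with Fzd10 (3.18) and Ror2 (2.77) among the higher and Fzd9 (-3.33) and Fzd5 (-2.68) among the lower. Wls, which carries Wnt ligands to the cell surface, was higher (1.39).

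Of 16 inhibitor genes, 7 were higher and 4 lower. Dkk4, a relative of Dkk1, had 3.74 ± 0.962 CPM in iPSM and was nearly without reads in ESC (0.00476 ± 0.00952 CPM), and Frzb, a secreted Frizzled-related protein, had 5.26 ± 3.14 CPM in iPSM and 0.443 ± 0.371 CPM in ESC. Dkk3 (-2.16) and Sfrp1 (-1.43) were lower. Of the 16 transducer genes, 7 were higher and 3 lower: Gsk3b (2.37) and Apc (1.23) were higher, Apc2 (-3.42) and Dvl1 (-0.90) lower. Of 12 nuclear factors, 6 were higher and 3 lower, among them Tcf7 (2.35) and Bcl9 (2.15), and Pygo2 (-1.02) and Tle1 (-0.55).

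Of 15 other Wnt targets, 9 were higher and 5 lower, with a median of 4.43. T, Cdx2, Tbx6, Msgn1, Dll1 and Mesp2 of this list, like Rspo3 above, are also among the presomitic markers. Their values are therefore not a separate reading of cell type. Msgn1 and Tbx6, transcription factor genes of the presomitic mesoderm, had 44.6 ± 21.5 and 45.1 ± 16.9 CPM in iPSM and 0.0377 ± 0.0312 and 0.286 ± 0.109 CPM in ESC. Tbx3, a T-box factor expressed in naive stem cells, was lower (-3.28). Mesp2 was lower as well, at 0.101 ± 0.0849 CPM in iPSM and 0.72 ± 0.15 CPM in ESC.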

How the data were processed

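Per the labels, total RNA was made into strand-specific libraries and sequenced from both ends. Per the submitters' processing notes, bcl2fastq, STAR 2.7.2a and HOMER were used with mm10. The deposited tables, 1 per cell type, hold the authors' expected counts over gene bodies in steps of 0.5, not normalised, and the authors' RPKM, scaled by gene body length and the header's total. Counts were rounded, the 10 libraries of a cell type were fitted as 6 groups with edgeR 4.0.16 in R 4.3.3 (TMM, filterByExpr, glmQLFit, glmQLFTest; 4 residual degrees of freedom), and all 20 as 12 groups for comparisons of cell types. p-values were adjusted over all features tested (Benjamini-Hochberg). SE is the log2 fold change over the square root of F. The test was tried on simulated counts. DESeq2 1.42.0, other filters and factors, clone as a block, left-out libraries and a length trend (lowess, span 0.3) were alternatives. Treated and untreated libraries of a number come from the same clone per the labels. Their deviations correlated at 0.422 and 0.189 in Clock/Bmal1 ESC and iPSM and at -0.0116 and 0.0845 in ClockBmal1DN ESC and iPSM.

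The members and lists were chosen with earlier results of these data known. The other Wnt genes named are those that passed in a dox comparison and, between cell types, the 2 largest rises and falls of each list with groups that do not overlap. Intervals are not given for single libraries, and reads carry no molecular identifiers.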

Additional observations from a re-analysis of the deposited data

How the results depend on the processing

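The count of the 10 Wnt genes called with Clock/Bmal1 in iPSM was 2 by the design given and 5 without a filter on low counts, 1 with a filter of 1 CPM in 2 libraries, 1 without the control line and 0 with only the groups compared. It lay between 0 and 5 over the 4 fits that leave out a library. In ESC the count of 0 became 2 without a filter, 1 with clone as a block and 1 with DESeq2, and lay between 0 and 1 with a library left out. For Clock/Bmal1 against ClockBmal1DN in iPSM the count of 0 became 1 without a filter and lay between 0 and 2 with a library left out. The remaining counts of Wnt genes kept their value or stayed within 1.5 times, the untreated cell types between 7 and 8. The cause was not tested.

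Over all features, calls with Clock/Bmal1 in ESC numbered 95, and 540 without a filter, 154 with clone as a block, 353 with DESeq2, 23 with only the groups compared and 7 to 90 with a library left out. In iPSM they numbered 257, and 601, 402, 375, 111 and 81 to 657 in the same order. The difference between the lines gave 13 calls in ESC (411 without a filter, 25 with the block, 132 with DESeq2, 0 to 8 with a library left out) and 70 in iPSM (271, 143, 150 and 8 to 158, 35 with 1 CPM in 2 libraries and 110 with the length trend removed). ClockBmal1DN gave 1 call in ESC (467 without a filter, 7 with DESeq2, 0 with only the groups compared, 0 to 2 with a library left out) and 1 in iPSM (8 without a filter, 1 to 2). The cell type difference of the Clock/Bmal1 effect gave 0 (89 without a filter, 1 with the block, 15 with DESeq2).

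Of single genes, the direction turned only where no call was made. With a library left out, the log2 fold changes with Clock/Bmal1 in ESC ran from -0.52 to 0.16 for Axin2, from -0.68 to 0.66 for Sp5 and from -0.12 to 1.03 for Znrf3, and in iPSM from -0.43 to 0.20 for Notum, from -0.02 to 0.90 for Lrp5 and from -0.33 to 0.26 for Nkd1 (0 with all libraries). With ClockBmal1DN they ran from -0.07 to 0.05 for Axin2 in iPSM and from -1.59 to 0.29 for Notum in ESC, and the Notum difference between the lines in ESC ran from -1.58 to 0.32. Between untreated cell types Phlda1 ran from -0.11 to 0.32, and Notum was -0.02 with the control line as another genotype. With clone as a block, Sp5 with Clock/Bmal1 in ESC was -0.01. The block changed the calls of Lrp5 in ESC and Phlda1 in iPSM with Clock/Bmal1 and no other call among the genes named for dox. With a prior count of 0.5 in place of 2 the control line's log2 ratio in ESC was 3.43 in place of 1.79 for Dkk1 and -2.58 in place of -2.42 for Rnf43. Where a library is left out, the lone library of its group is assumed to vary like the other groups. Genes at a few counts, Dkk1 in ESC above all, are limited by depth.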
